A study of Apis mellifera with 6 samples.

Results

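Hsp90, the 4 Hsc70-type genes Hsc70-4, Hsc70cb, Hsc70-3 and Hsc70-5, and the heat shock transcription factor gene Hsf were examined in the ovaries of the honeybee, Apis mellifera. They were taken by symbol from a table of 11169 gene entries, and each of the 6 symbols stands on a single entry. All 6 had at least 1 RPKM in at least 2 libraries and so passed the filter on low values, as did 8778 of the 11169 entries. RPKM is a read number divided by gene length and by library size, so levels of different genes can be set side by side. Hsp90 (gene ID 408928, also named Hsp83) lies on scaffold NW_003378067 from 51933 to 55153, and Hsc70-4 (409418) on NW_003378036 from 1379161 to 1383494. Hsc70cb (408706) lies on NW_003377991 from 1406713 to 1415496, Hsc70-3 (409587) on NW_003377902 from 398990 to 402862, Hsc70-5 (408605) on NW_003378185 from 900577 to 905135 and Hsf (411854) on NW_003378078 from 58091 to 68160. These are the whole gene spans as the deposited table gives them, and the name of its assembly is not given in the sources used here.

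RNA-seq was carried out on total RNA from dissected ovaries, with 2 libraries for each of 3 kinds of female and each library made from its own pool. Queen-right workers came from hives headed by a laying queen, and their inactive ovaries had an ovary score of 0. Queen-less workers came from nucleus boxes set up with brood and bees but no queen, were dissected 2 to 4 weeks later and had active ovaries with a score of 3. Queens were about 12 months old and laying at the head of colonies, and no agent or altered allele is named for any of the groups. All bees were kept at sites around Dunedin, New Zealand, and bees of queen-right hives supplied the queen-less boxes. The number of ovaries in a pool is not given in the sources used here, so the spread between 2 libraries is that between pools and not that between bees.

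Molecular chaperones bind unfolded or part-folded proteins and release them again in cycles driven by ATP. Hsp70 proteins act early and broadly on exposed stretches of chain, helped by J proteins, which deliver clients and trigger ATP hydrolysis, and by exchange factors, which open the nucleotide pocket again. Hsp90 acts later, on a narrower set of clients that includes kinases and steroid hormone receptors, and works with co-chaperones that bring clients or set the pace of its cycle. Each compartment has its own Hsp70. In Drosophila, Hsc70-4 is the main constitutive form of the cytosol, Hsc70-3 is the form of the endoplasmic reticulum (ER) known in mammals as BiP, Hsc70-5 is the mitochondrial form and Hsc70cb belongs to the Hsp110 class of exchange factors. Hsf binds heat shock elements upstream of chaperone genes and drives their transcription under stress. In the fly ovary, nurse cells make Hsp83 transcript that is loaded into the egg, and Hsf is needed for egg development.

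The sum of RPKM was 385121 and 411992 in the queen-right worker libraries and between 330953 and 336392 in the other 4, and the authors multiplied RPKM + 1 by a factor for each library, 0.8557 to 1.0095, which was kept for the tests. How many reads each library holds is unknown from these values, but steps between low RPKM values placed every library at 95.2% or more of the reads of the deepest one. Replicate pools correlated across genes with r between 0.987 and 0.992 on the log2 scale. Differences between groups were tested by limma on the scaled log2(RPKM + 1), with Benjamini-Hochberg (BH) adjustment over the 8778 entries tested and 0.05 as the threshold. The added 1 makes fold changes of weakly expressed genes too small, and an exact permutation test of 2 libraries against 2 cannot give a two-sided p below 0.33, so a call leans on the spread that limma pools over genes. In tissue RNA, fewer cells of a type and less RNA per cell cannot be told apart. Muscle and fat body marker genes differed widely between the groups, and which cells their transcripts came from was not tested. Summed RPKM of 7 muscle markers was 2598 and 3250 in queen-right workers, 153 to 182 in queen-less workers and 22 to 37 in queens, and that of 6 fat body markers was 1238 to 1579, 39 to 50 and 13 to 36. Between the workers, 30.6% of all entries tested were higher and 37.0% lower. Of 8 germline markers 4 (vas, Ago3, mael and BicD) were higher in queen-less than queen-right workers, orb was lower and 3 were not called. Their summed RPKM was 1175 and 1256 in queen-right workers, 2437 and 2821 in queen-less workers and 3123 and 3231 in queens. Without mael it was 1078 and 1200, 970 and 871, and 922 and 849, so that the rise of the sum came from mael. Most of the sum without mael was orb, at 963 and 1058 RPKM in queen-right workers and 623 and 523 in queen-less workers. From queen-right to queen-less workers vas went from 18.55 and 16.73 RPKM to 193 and 201, and Ago3 from 8.07 and 10.91 to 56.7 and 53.6. TpnCIIb was listed at 0 in the 4 queen-less worker and queen libraries, and no other marker was at 0 in any library. Every comparison with queen-right workers below carries these differences in tissue markers, and their part in the results was not tested.

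Between active queen-less and inactive queen-right worker ovaries, the cytosolic pair Hsp90 and Hsc70cb more than doubled and the mitochondrial Hsc70-5 rose less, while Hsc70-4, Hsc70-3 and Hsf did not pass the test. By limma with BH adjustment, 3 of the 6 genes were higher in queen-less workers and 0 were lower. Of all entries tested, 67.6% differed in this comparison, 30.6% being higher and 37.0% lower. A change past the threshold was therefore the rule in this tissue, and 3 of 6 is a smaller share than that of all entries. Hsp90 and Hsc70cb were above most entries in the size of their rise, though many entries rose more. Of the 8778 entries tested, 2686 were called higher, 1018 had a higher signed log2 fold change than Hsp90 and 776 a higher one than Hsc70cb. In queens against queen-right workers 1594 entries lay above Hsp90 and 721 above Hsc70cb, with 2744 called higher.

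Hsp90 transcript was at 461 and 485 RPKM in queen-right workers, at 991 and 1004 in queen-less workers and at 830.2 and 800.5 in queens. The order was queen-less workers, queens and queen-right workers, with no overlap between groups (which held for 83.9% of all entries tested between the workers and for 86.6% between queens and queen-right workers, and so sets no gene apart), and the step from queen-right workers to either of the others was many times the gap between replicate pools. Its level was 2.41-fold higher in queen-less than queen-right workers, a log2 fold change of 1.27 ± 0.12 (SE, n = 2 libraries a group) with a 95% interval from 0.98 to 1.56 and an adjusted p of 9.33e-05 by limma with BH. In queens against queen-right workers the log2 fold change was 0.98, from 0.69 to 1.27, with an adjusted p of 0.000259. Both calls held under every one of the 18 alternatives tried for each of these comparisons. Among all 11169 entries ordered by RPKM, Hsp90 stood at places 108 and 122 in queen-right workers, 16 and 14 in queen-less workers and 18 and 20 in queens. It thus went from an abundant transcript to one of the most abundant in the active ovaries.

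**Figure D1:**
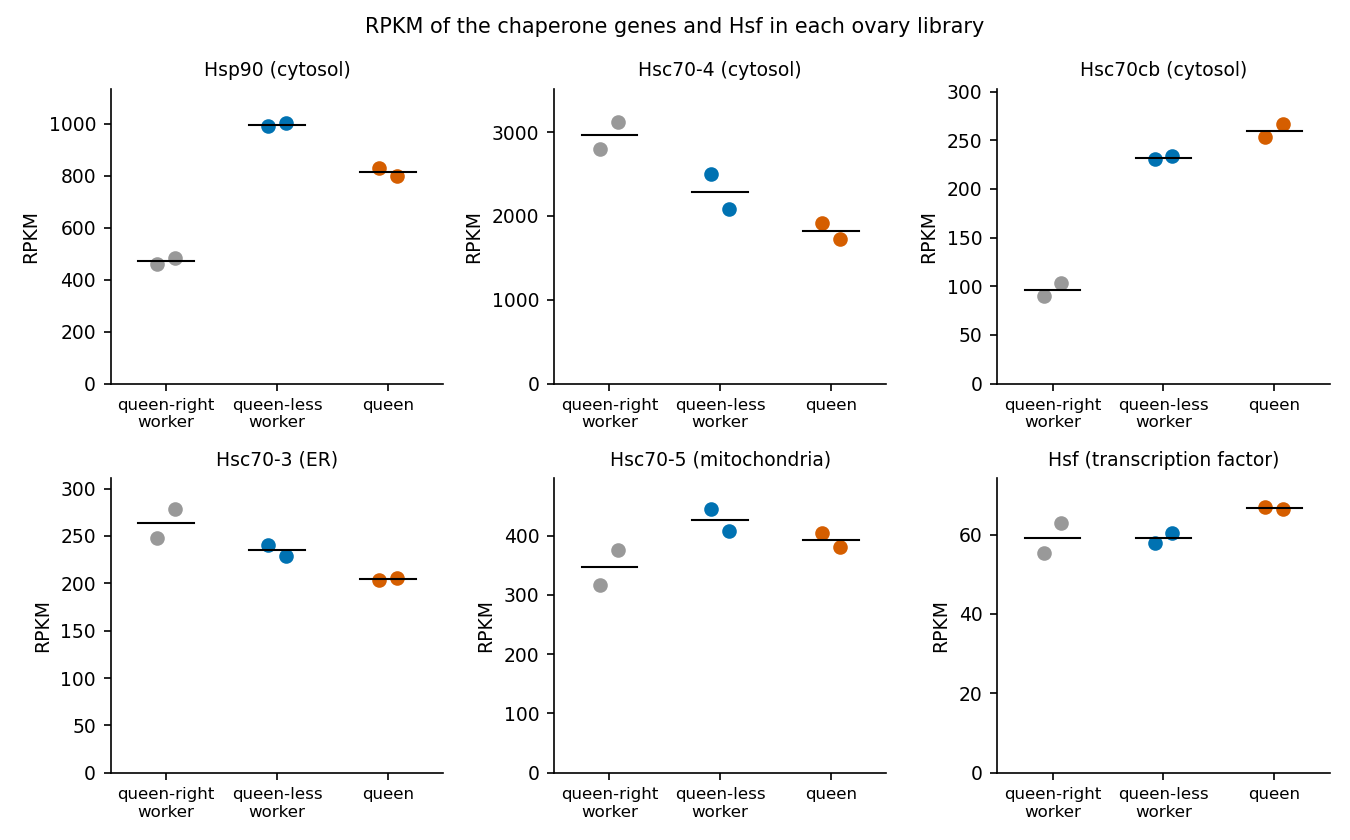
RPKM (vertical axes, from 0) of each of the 6 genes in the 2 libraries of queen-right workers (grey), queen-less workers (blue) and queens (orange), with the mean of each pair as a black line. Hsp90 and Hsc70cb sit far lower in both queen-right worker libraries, at 461 and 485 RPKM for Hsp90, than in the other 4, whereas Hsf lies between 55.5 and 66.9 RPKM throughout.

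Of 6 listed co-chaperones of Hsp90 that were measured, 3 were higher and 2 lower in queen-less than queen-right workers by limma with BH adjustment (all entries tested: 30.6% higher, 37.0% lower), and their median log2 fold change was 0.54 against −0.13 for all entries tested. FKBP59, an immunophilin that binds Hsp90, rose from 85.6 and 83.2 RPKM to 246 and 256, a log2 fold change of 1.75 ± 0.10 (SE) with an adjusted p of 9.01e-06, and was at 289 and 285 in queens. This was the largest rise on the list, and the groups lay far apart. The TPR-domain protein gene spag rose by 1.37 on the log2 scale, and CHORD, whose product binds Hsp90, rose by 0.87. Sgt1 fell by 0.38, with an adjusted p of 0.0157 by limma with BH that became 0.0999 without queen-less worker library 2. Its value was −0.23 (adjusted p = 0.0823) with a trimmed mean of log ratios and −0.09 (0.461) once the trend with gene length was removed. Dpit47, another TPR co-chaperone, fell by 0.32 with an adjusted p of 0.0362, and the count of genes lower on this list dropped to 0 or 1 under 11 of the 18 alternatives. The gene shu, an FKBP-type partner of Hsp90 in the piRNA pathway in Drosophila, differed by 0.22 without passing the test between the workers and rose by 0.64 in queens against queen-right workers. Trap1, the mitochondrial form of Hsp90, was between 32.9 and 41.1 RPKM in the 6 libraries and had a log2 fold change of 0.17 between the workers with an adjusted p of 0.260.

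Of the nuclear receptors, a class that contains known Hsp90 clients, Err rose by 2.36 and Ecr by 1.60 on the log2 scale from queen-right to queen-less workers, with adjusted p of 3.24e-05 and 0.00228 by limma with BH. Err, the estrogen-related receptor, went from 54.5 and 37.7 RPKM to 196 and 219. Ecr, the ecdysone receptor, went from 27.2 and 13.3 RPKM to 48.3 and 56.2, and the wide gap between its queen-right worker libraries stands behind its larger SE of 0.30. Usp, the partner of the ecdysone receptor, was at 35.6 and 26.6 RPKM in queen-right workers and at 24.5 and 20.4 among queen-less workers. It was not called between the workers (adjusted p of 0.248 by limma with BH). In queens against queen-right workers Usp was lower, with −0.66 and an adjusted p of 0.0117 by limma with BH. Err and Ecr were higher there, with 2.42 and 1.49.

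Hsc70-4, the constitutive cytosolic Hsp70, was the most abundant of the 6 genes in every library. It was at 2799.6 and 3126 RPKM in queen-right workers, 2496 and 2084.5 in queen-less workers and 1919 and 1729.5 in queens. The groups did not overlap and stood in that order, but the gap between the 2 queen-less worker libraries was larger than that from the higher of them to queen-right worker library 1. After the authors' scaling the log2 fold change between the workers was −0.18, with an interval from −0.63 to 0.27 and an adjusted p of 0.426 by limma with BH. Queens against queen-right workers gave −0.50, from −0.95 to −0.05, with an adjusted p of 0.0477. That call stood at the edge of the threshold and was lost in 9 of 18 alternatives, among them those without queen-right worker library 2 (−0.45, adjusted p = 0.0742), without queen library 1 (−0.58, 0.108) and without queen library 2 (−0.42, 0.222). In all libraries Hsc70-4 ranked between places 3 and 7 of 11169 entries by RPKM.

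Hsc70cb, the Hsp110-class exchange factor, rose the most of the 6 genes in both active types with the authors' factors, though under quantile normalization the log2 fold change of Hsp90 between the workers was the larger (1.77 against 1.38). It was at 89.5 and 103 RPKM in queen-right workers, 231 and 234 in queen-less workers and 253 and 266 in queens. The levels rose in that order without overlap, with both active types well apart from queen-right workers and close to each other. Relative to queen-right workers the gene was 2.75-fold higher in queen-less workers, a log2 fold change of 1.46 ± 0.10 (SE, n = 2 a group) with an interval from 1.22 to 1.69 and an adjusted p of 1.87e-05 by limma with BH. In queens it was 3.09-fold higher, with a log2 fold change of 1.63 from 1.39 to 1.86 and an adjusted p of 8.25e-06. All 18 alternatives kept both calls. Its rank by RPKM moved from 693 and 617 in queen-right workers to between 130 and 180 in the other 4 libraries. The span of Hsc70cb overlaps that of another entry, LOC725742, and it is not given in the sources used here whether the counting used strand. LOC725742 was at 5.17 and 4.48 RPKM in queen-right workers and between 0.69 and 1.92 in the other libraries, a small fraction of the level of Hsc70cb.

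**Figure D2:**
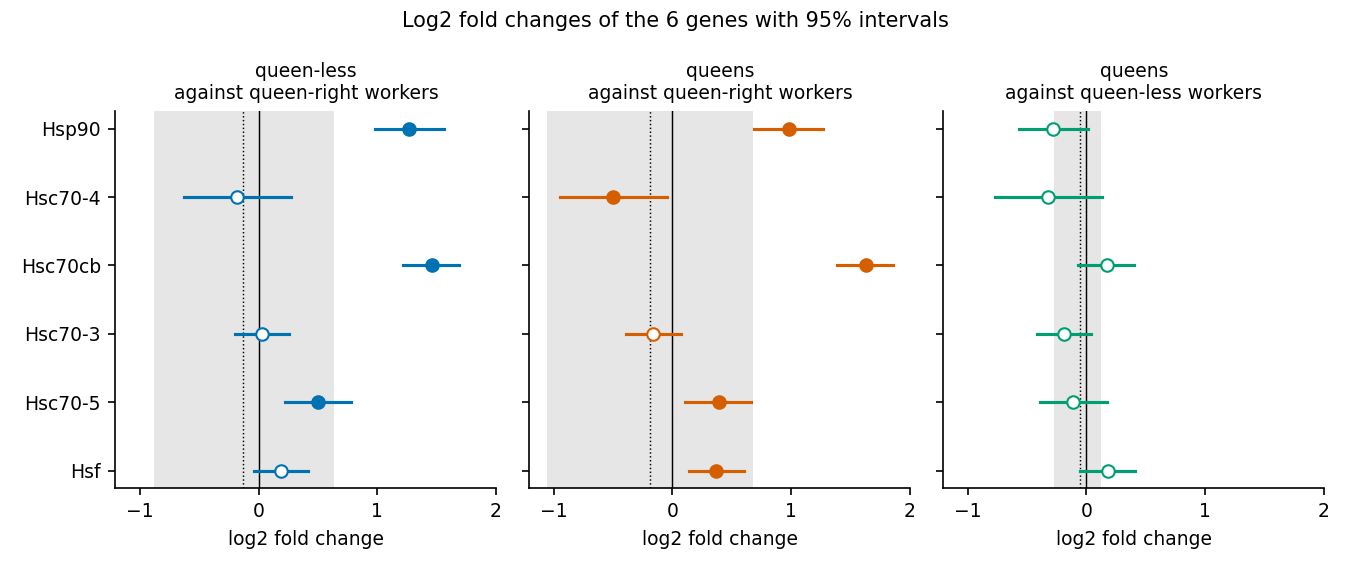
Log2 fold changes (horizontal axis) of the 6 genes in the 3 comparisons, first group minus second, with 95% intervals from limma as lines, filled points past the threshold of 0.05 on the adjusted p and open points not past it. Grey bands are the middle quartiles of all 8778 entries tested and dotted lines their medians. Hsp90 at 1.27 and Hsc70cb at 1.46 lie above the band between the workers, and no point is filled between queens and queen-less workers.

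Among J proteins, the partners that start the Hsp70 cycle, 2 of 4 were higher in queen-less than queen-right workers and 0 were lower by limma with BH adjustment, with a median log2 fold change of 0.39 (30.6% of all entries tested were higher). Droj2, a DnaJ-type protein of the cytosol, rose from 229 and 254 RPKM to 510.3 and 542, and was at 510.1 and 495 in queens. Its log2 fold change of 1.32 ± 0.11 (SE) between the workers, with an adjusted p of 4.75e-05, was of the size of those of Hsp90 and Hsc70cb. P58IPK, the J protein of the ER, rose by 0.39 with an adjusted p of 0.0366, a call lost in 9 of 18 alternatives. Leaving out queen-right worker library 1, queen-less worker library 1 or either queen library was enough to lose it, with values from 0.22 to 0.39. Csp and Rme-8, which serve vesicles and endosomes, had −0.13 and 0.39 with adjusted p of 0.610 and 0.139. Neither of the 2 Hsp70 co-chaperones measured was called. Roe1, the exchange factor of mitochondrial Hsp70, differed by 0.20 between the workers and Sgt by 0.11.

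The cytosolic chaperonin, a ring of subunits that folds actin and tubulin, was represented by 4 subunits under plain symbols. All 4 were higher in queen-less than queen-right workers by limma with BH adjustment, as were 30.6% of all entries tested. Tcp-1eta rose by 0.74 and Cctgamma by 0.64 on the log2 scale, with adjusted p of 0.000451 and 0.000855, and both calls held in all 18 alternatives. Cct5 rose by 0.39 and Tcp-1zeta by 0.29, with adjusted p of 0.0141 and 0.0369. On RPKM with no further scaling only Tcp-1eta and Cctgamma remained past the threshold. Without queen-less worker library 1 the call of Cct5 was lost (adjusted p = 0.0623), and that of Tcp-1zeta was lost without any 1 library except queen-right worker library 2.

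Hsc70-3, the Hsp70 of the ER, changed little. It was at 248 and 279 RPKM in queen-right workers, 241 and 229 in queen-less workers and 203 and 206 in queens. Before scaling the groups stood in that order without overlap, and after it the 2 worker groups overlapped. The log2 fold change between the workers was 0.03, with an interval from −0.20 to 0.26 and an adjusted p of 0.804 by limma with BH, and its sign turned on RPKM with no further scaling (−0.16) and without queen-right worker library 1 (−0.02). Queens against queen-right workers gave −0.16, from −0.39 to 0.07, with an adjusted p of 0.185. On unscaled RPKM this became −0.36 with an adjusted p of 0.0211, and with a trimmed mean of log ratios it turned to 0.04.

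Other genes of folding in the ER moved more than Hsc70-3, and more of them fell than rose. Of 7 listed genes 5 were lower and 2 higher in queen-less than queen-right workers by limma with BH adjustment (all entries tested: 37.0% lower, 30.6% higher), with a median log2 fold change of −0.62 against −0.13 for all entries. Ero1L, the oxidase that recharges protein disulfide isomerase, was at 24.1 and 23.8 RPKM in queen-right workers and at 9.69 and 9.44 among queen-less workers, and fell by 1.05 on the log2 scale with an adjusted p of 0.000433. ERp60 of the disulfide isomerase family fell by 0.82 and Edem1, a lectin of ER-associated degradation, by 0.64. The related Edem2 rose by 0.77, with an adjusted p of 0.00178. Calreticulin (Crc) and Manf were the other genes lower, with −0.62 and −0.54, and Pdi the other gene higher, with 0.32. The count of genes higher was 1 under 9 of the 18 alternatives. For all 7 genes the libraries of the 2 worker groups were apart on the scaled values, as they were for 83.9% of all entries tested.

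The unfolded protein response is the pathway by which the ER signals a load of unfolded proteins, and Hsc70-3 (as BiP) is among its targets. Of 5 genes of this response 3 were lower and 0 higher in queen-less than queen-right workers, where 37.0% of all entries tested were lower. The ATF4-type factor gene crc was at 506 and 526 RPKM in queen-right workers, 140.4 and 139 in queen-less workers and 131 and 134 in queens. It fell by 1.69 on the log2 scale between the workers, with an adjusted p of 8.72e-06 by limma with BH, and its group pairs were tight and far apart. The sensor gene ire-1 fell by 1.07 and the factor gene Xbp1, whose transcript Ire1 splices, by 0.43. Once the trend with gene length was removed, Xbp1 had −0.12 and was not called (adjusted p = 0.355). Atf6 and the kinase gene PEK had 0.24 and −0.31 and were not called. In the table crc in lower case and Crc are separate entries.

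Of 9 genes that move proteins into the ER 4 were lower and 2 higher in queen-less than queen-right workers, shares not far from the 37.0% and 30.6% of all entries tested. Tapdelta, a translocon-associated protein, and Srp14, a part of the signal recognition particle, fell by 1.56 and 1.48 on the log2 scale, with adjusted p of 0.000109 and 0.000159 by limma with BH. Another part of the same particle, Srp54, rose by 1.06 with an adjusted p of 0.000270. The receptor subunit gene SrpRbeta fell by 0.71 between the workers, and its difference between queens and queen-right workers was −0.20 and not called.

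Hsc70-5, the mitochondrial Hsp70, was at 317 and 376 RPKM in queen-right workers, 445 and 408 in queen-less workers and 404 and 381 in queens. Both active types lay above queen-right workers without overlap, though queen library 2 came within a few RPKM of queen-right worker library 2, and the ranges of queen-less workers and queens met closely. Its log2 fold change between the workers was 0.50 ± 0.12 (SE, n = 2 a group), from 0.22 to 0.78, with an adjusted p of 0.00743 by limma with BH. In queens against queen-right workers it was 0.39, from 0.11 to 0.66, with an adjusted p of 0.0204. Both calls were lost on RPKM with no further scaling, where the log2 fold changes were 0.30 and 0.19 with adjusted p of 0.0803 and 0.251. The call in queens was lost without queen library 1 (0.34, adjusted p = 0.130) and without queen library 2 (0.43, 0.0715). The entry LOC100577514, which overlaps Hsc70-5, was listed at 0 in every library.

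Among 6 genes of mitochondrial import 2 were higher and 3 lower in queen-less than queen-right workers by limma with BH adjustment, shares near those of all entries tested (30.6% higher, 37.0% lower). The receptor gene Tom70 and the TPR protein gene Tom34 rose by 0.48 and 0.46 on the log2 scale, calls that were both lost on RPKM with no further scaling (0.29 and 0.27, adjusted p of 0.0779 and 0.0889). The outer membrane subunit gene Tom7 fell by 0.69, the channel subunit gene Tim17 by 0.41 and the small Tim gene Tim10 by 0.39. Tom7 turned to 0.03 once the trend with gene length was removed. The call of Tim17 was lost without any 1 library other than queen-right worker library 1 and queen-less worker library 1, and that of Tom34 without queen-right worker library 2 or queen-less worker library 2. The 2 mitochondrial proteases measured, HtrA2 and PITRM1, had −0.06 and −0.02 and were not called.

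**Figure D3:**
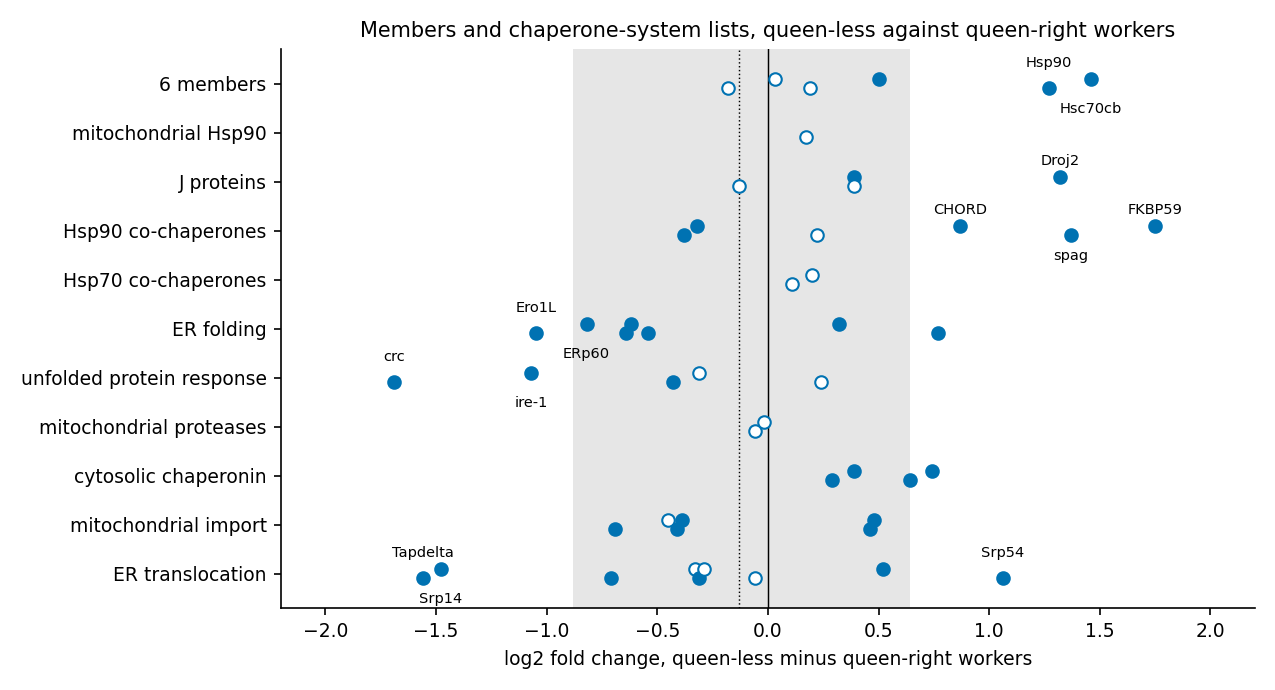
Log2 fold changes (horizontal axis) between queen-less and queen-right workers for the 6 genes and for each list of the chaperone systems, a point for each gene, filled where limma with BH adjustment passed the threshold and named where the change exceeds 0.8 in size. The small vertical steps within a row only separate points, the grey band holds the middle quartiles of all entries tested and the dotted line their median of −0.13. Of the genes named, Hsp90, Hsc70cb, Droj2, spag, FKBP59, CHORD and Srp54 lie to the right of the band. To its left are crc, Tapdelta, Srp14, ire-1 and Ero1L.

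Over the 10 lists of chaperone systems, 46 genes beside the 6, 15 were higher, 17 were lower and 14 were not called between the workers, so that 69.6% differed against 67.6% of all entries tested. Their median log2 fold change of −0.06 lay close to the −0.13 of all entries tested. The balance turned with the scaling, from 9 higher and 21 lower on RPKM with no further scaling to 18 higher and 12 lower with a trimmed mean of log ratios.

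Hsf itself was the least abundant of the 6 genes in every library, at 55.5 and 62.95 RPKM in queen-right workers, 57.9 and 60.5 in queen-less workers and 66.9 and 66.5 in queens. The worker groups overlapped in RPKM and queens lay just above both. After the authors' scaling the log2 fold change between the workers was 0.19, from −0.04 to 0.42, with an adjusted p of 0.117 by limma with BH. It passed the threshold with a trimmed mean of log ratios (0.34), with the median of ratios (0.28) and with RPKM rescaled to an equal sum (0.25), and turned to −0.04 under quantile normalization. Queens against queen-right workers gave 0.37, from 0.14 to 0.60, with an adjusted p of 0.0104. This call was lost on unscaled RPKM (0.17), under quantile normalization (0.11), without queen library 1 (adjusted p = 0.0681) and without queen library 2 (adjusted p = 0.0629). The activity of the Hsf protein, which in other animals is set largely by release from chaperones and assembly into trimers, was not measured.

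Queens and queen-right workers differed in 5 of the 6 genes by limma with BH adjustment, 4 being higher in queens (Hsp90, Hsc70cb, Hsc70-5 and Hsf) and 1 lower (Hsc70-4). Of all entries tested, 71.8% differed in this comparison, 31.3% higher and 40.6% lower. Counts over the 46 listed genes were 17 higher, 15 lower and 14 not called, and they went from 11 higher and 18 lower on RPKM with no further scaling to 22 higher and 9 lower once the trend with gene length was removed. Since the same queen-right worker libraries serve as the reference of both comparisons, the values of queens and of queen-less workers against them are not independent of each other.

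Between queens and queen-less workers, the 2 kinds of female with active ovaries, 0 of the 6 genes passed the threshold by limma with BH adjustment, and 0 of 6 had an unadjusted p under 0.05. In this comparison 1.48% of all entries tested were called, 130 in number, and leaving out any 1 of the 6 libraries gave between 35 and 85. Hsp90 came nearest, with a log2 difference of −0.28 and an interval from −0.57 to 0.01. Both queen libraries lay below both queen-less worker libraries for Hsp90, Hsc70-4, Hsc70-3 and Hsc70-5 and above them for Hsc70cb and Hsf, but 55.2% of all entries tested had groups apart in this comparison. The intervals of the other differences ran from −0.77 to 0.13 for Hsc70-4, −0.07 to 0.40 for Hsc70cb, −0.42 to 0.04 for Hsc70-3, −0.39 to 0.17 for Hsc70-5 and −0.05 to 0.41 for Hsf. Differences of up to these sizes between the active types cannot be told from 0 with 2 libraries a group. Of the 46 listed genes 0 were called and 6 had an unadjusted p under 0.05.

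Ratios of genes within a library do not depend on any factor by which a library is scaled, and they set the compartments side by side. For every 100 RPKM of Hsc70-4 there were 16.5 and 15.5 RPKM of Hsp90 in queen-right workers, 39.7 and 48.2 in queen-less workers and 43.3 and 46.3 in queens. The 2 cytosolic chaperones thus came closer to each other in amount in both active types, which overlapped. The ratio of Hsp90 to Hsc70-4 was 2.73-fold higher in queen-less than queen-right workers and 2.80-fold higher in queens, larger steps than the spread between pools, with an exact two-sided permutation p of 0.33 that is the smallest the design allows. Hsc70cb per 100 RPKM of Hsc70-4 went from 3.20 and 3.29 in queen-right workers to 9.24 and 11.2 in queen-less workers and 13.2 and 15.4 in queens. This was the largest shift among the 5 ratios, 3.14-fold and 4.39-fold.

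The organelle forms shifted less against Hsc70-4. Hsc70-5 of the mitochondria stood at 11.3 and 12.0 RPKM per 100 of Hsc70-4 in queen-right workers, 17.8 and 19.6 in queen-less workers and 21.1 and 22.1 in queens. Hsc70-3 of the ER stood at 8.85 and 8.92, 9.65 and 11, and 10.6 and 11.9 in the same groups. Both ratios rose without overlap from queen-right workers to the active types, by 1.60-fold and 1.16-fold in queen-less workers. The Hsc70-3 ratio overlapped between queen-less workers and queens. This ratio rose although mean RPKM of Hsc70-3 itself went down, from 263 in queen-right workers to 235 in queen-less workers and 205 in queens. The mean of Hsc70-4, the divisor, went from 2963 to 2290 and 1824 in the same groups. Between the organelles, Hsc70-5 was above Hsc70-3 in all libraries, with 128 and 135 RPKM per 100 of Hsc70-3 in queen-right workers, 185 and 178 in queen-less workers and 199 and 185 in queens. That ratio was 1.38-fold and 1.46-fold higher in the active types than in queen-right workers, and each of these differences between groups without overlap has the same smallest exact permutation p of 0.33.

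**Figure D4:**
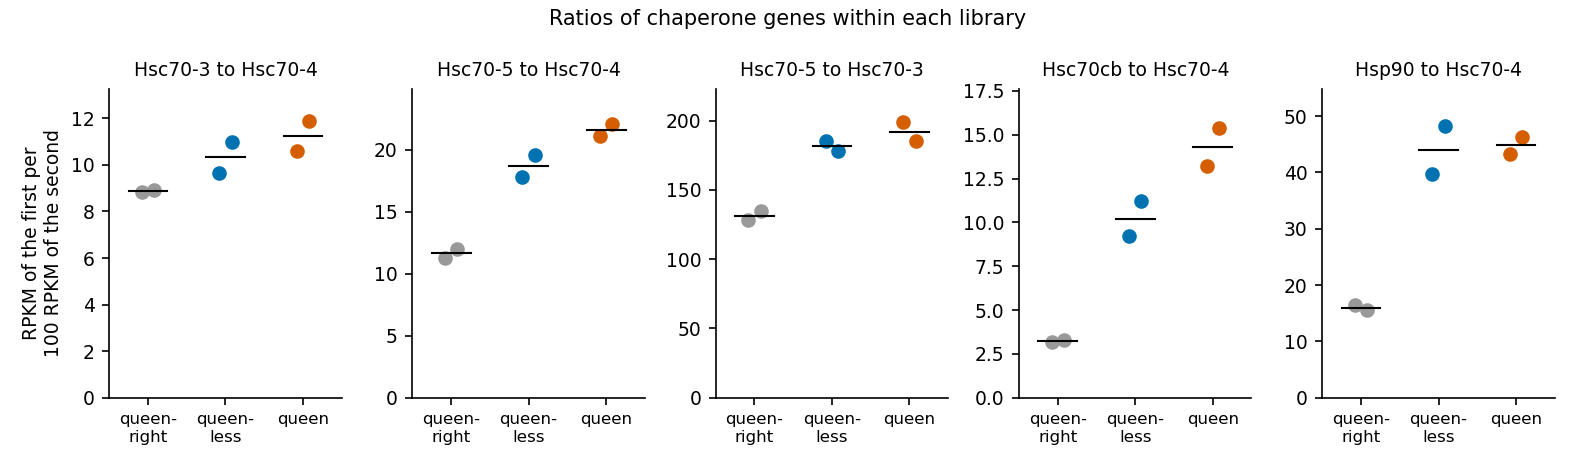
Ratios of RPKM within a library for 5 pairs of genes (vertical axes from 0, RPKM of the first gene per 100 RPKM of the second), with a point for each of the 2 libraries of queen-right workers (grey), queen-less workers (blue) and queens (orange) and the mean as a line. All 5 ratios are lower in both queen-right worker libraries than in the other 4. The shift is largest for Hsc70cb to Hsc70-4, at 3.20 and 3.29 against 9.24 to 15.4. All ratios but that of Hsc70-5 to Hsc70-3 share Hsc70-4 as divisor, so they are not separate observations. How often ratios of other gene pairs lie apart in this way was not computed.

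Taken as one pool of transcript, the 6 genes made up 1.03% and 1.08% of a library's summed RPKM in queen-right workers, 1.33% and 1.21% in queen-less workers and 1.11% and 1.04% in queens. As a percent, the pool was somewhat larger in both queen-less worker libraries than in the other 4, and queens and queen-right workers overlapped. In summed RPKM the 6 genes came to 3971 and 4432 in queen-right workers, 4461 and 4020 in queen-less workers and 3677 and 3450 in queens. On that measure the worker groups overlapped and queens lay below both. Hsc70-4 took 70.5% of the pool in both queen-right worker libraries, 55.9% and 51.8% in queen-less workers and 52.2% and 50.1% in queens. The share of Hsp90 was 11.6% and 10.9% in queen-right workers and between 22.2% and 25% in the other 4 libraries.

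Hsp90 and Hsc70cb were higher than in queen-right workers under all 7 ways of putting the libraries on 1 scale. The sign of the small difference of Hsc70-3 depended on the scaling in both comparisons with queen-right workers. That of Hsf depended on it only between the workers, and in queens Hsf was 0.11 to 0.56 higher under all 7. The median over all entries tested was −0.13 between the workers with the authors' factors, −0.32 on RPKM with no further scaling and −0.01 with a trimmed mean of log ratios (log2 fold changes). Set against this median, Hsp90 stood 1.40 above it with the authors' factors and between 1.31 and 1.80 above it over the 7 scalings, and Hsc70cb between 1.37 and 1.62. Hsc70-5 stood 0.43 to 0.93 above the median of all entries. Hsc70-4 stood 0.02 to 0.24 below it, Hsc70-3 0.01 to 0.22 above it, and Hsf went from 0.01 below to 0.35 above.

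**Figure D5:**
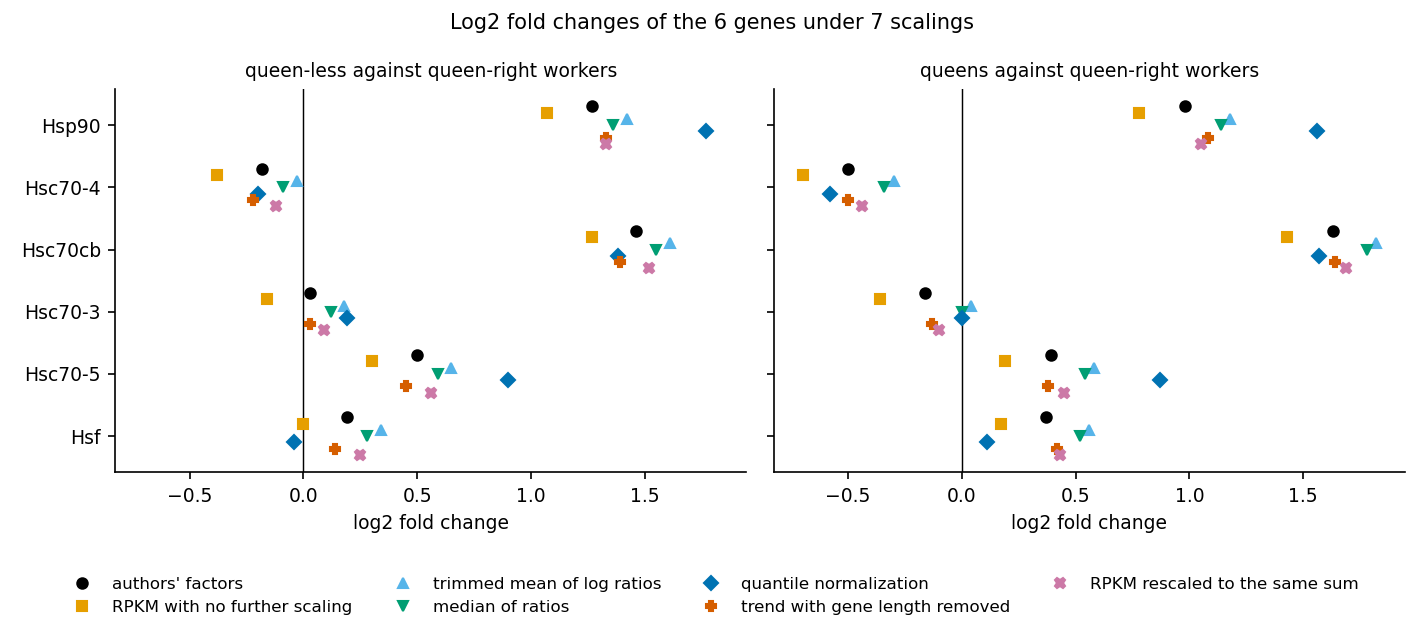
Log2 fold changes (horizontal axis) of the 6 genes under 7 ways of putting the libraries on 1 scale, for queen-less against queen-right workers and for queens against queen-right workers, with a symbol for each scaling. Hsp90 and Hsc70cb lie to the right of 0 under all 7 in both panels, whereas Hsc70-3 in both panels and Hsf between the workers have points on either side of 0 or at it.

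The entries with the pattern most like each gene were found by the distance between log2 values over the 6 libraries, after scaling and with each gene set to its own mean. This is a description over 6 libraries that share their groups. Nearest to Hsp90 were Ack (distance 0.11), Tim2 and LOC100576527, all at much lower levels. Ack was at 9.63 and 9.84 RPKM in queen-right workers, 20.3 and 20.7 in queen-less workers and 18.3 and 16.4 in queens, so that it too was highest in queen-less workers. Nearest to Hsc70cb was tws (distance 0.09), a regulatory subunit of protein phosphatase 2A, followed by LOC409888 and lin. Levels of tws were close to those of Hsc70cb as well, at 95.2 and 103 RPKM in queen-right workers, 229 and 242 in queen-less workers and 265 and 271 in queens. Hsc70-4 had LOC551690, nwk and LOC412187 nearest to it, Hsc70-3 had Myo18, LOC552236 and LOC409169, Hsc70-5 had LOC411404, Dctn4 and LOC726957, and Hsf had LOC552044, LOC411121 and LOC410098. For Hsc70-3 and Hsf, whose own values varied little, a short distance says only that the neighbours varied little as well.

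Small heat shock genes, a family of chaperones that hold unfolded proteins without using ATP, went the opposite way from Hsp90 and Hsc70cb. All 9 that were measured were lower in queen-less than queen-right workers by limma with BH adjustment (all entries tested: 37.0% lower). Their median log2 fold change was −2.84, against −0.13 for all entries tested. All 9 were also lower in queens against queen-right workers (all entries tested: 40.6% lower). None of the 6 genes described here fell between the workers past the threshold.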

How the data were processed

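RNA-seq of honeybee ovaries was used from 6 libraries, 2 pools each of 3 groups, assigned by their source labels. The authors deposited RPKM, and a normalized signal that equals RPKM + 1 times a factor for each library. The factor was derived from the more highly expressed entries, where it held to within 0.12%, and was applied to all. This was not checked for entries with lower RPKM. The aligner, counting program and build are not given in the sources used here. Another 12 columns of values per sample, 3 columns of the authors' adjusted p-values and the group means were not used. No read counts were used, so the absolute depth is unknown.

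limma 3.58.1 (R 4.3.3) with a variance trend was fitted to log2(RPKM + 1) with the authors' factors, all 6 libraries and 1 mean per group, for entries that reached 1 RPKM in 2 or more libraries, with Benjamini-Hochberg adjustment. The fit was also run on simulated data as a self-test, and no result given here rests on that run. Ratios, shares and ranks were computed in Python 3.11.15 with scipy 1.17.1.

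The members and lists were chosen with earlier results of these data known. Lists had been laid out by gene descriptions. As the reference table (Amel_HAv3.1, 8962 IDs matched, used for names only) gives none, genes were matched by symbol, ambiguous symbols were left out and no prefoldin was found. The text names the 6 genes, the 3 entries nearest to each and up to 4 called genes with the largest change in each list. Other list genes were named after their values were seen. Alternatives covered scaling, gene length, pseudocount (0.1), filters, libraries in the fit and the replicate number as a block. Promoter and protein sequences were not analysed here.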

Additional observations from a re-analysis of the deposited data

How the results depend on the processing

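Over the 18 comparisons of the 6 genes and their alternatives, 324 values in all, 299 kept their direction and their side of the threshold, 17 lost a call, 4 gained one and 4 changed sign. Hsp90 and Hsc70cb against queen-right workers kept their calls throughout. Log2 fold changes with adjusted p by limma with BH are given here, and where no value shows the cause, the cause was not tested.

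On RPKM with no further scaling, Hsc70-3 turned to −0.16 between the workers and reached −0.36 (adjusted p = 0.0211) in queens against queen-right workers, Hsc70-5 fell short with 0.30 between the workers and 0.19 in queens, and Hsf with 0.17 in queens. With a trimmed mean of log ratios, Hsf was called between the workers (0.34), and in queens against queen-right workers Hsc70-4 was not (−0.30) and Hsc70-3 turned to 0.04. The median of ratios gave 0.28 for Hsf between the workers, now called, and −0.34 for Hsc70-4 in queens, not called. Quantile normalization turned Hsf to −0.04 between the workers and left it uncalled in queens (0.11). RPKM rescaled to an equal sum, chosen after seeing the data, gave 0.25 for Hsf between the workers, called, and −0.44 for Hsc70-4 in queens, not called. Removing the trend with gene length left Hsc70-4 in queens at −0.50 and not called, as did testing with no filter (−0.50), and turned Tom7 to 0.03 in both comparisons with queen-right workers and SrpRbeta to 0.10 in queens.

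Leaving out 1 library at a time moved Hsc70-3 between the workers from −0.02 to 0.08. In queens against queen-right workers it moved Hsc70-4 from −0.58 to −0.42, Hsc70-5 from 0.30 to 0.47 and Hsf from 0.32 to 0.43. The number of genes called between queens and queen-less workers, 130, went from 35 to 85. It was 82 under quantile normalization and 42 with the 4 libraries of that comparison alone.

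Deviations of same-numbered libraries correlated at −0.129, −0.0862 and 0.0614 for the 3 pairs of groups. With 2 libraries a group these values cannot settle whether same-numbered pools were paired. With the replicate number as a block, 72 genes were called between queens and queen-less workers, and Hsc70-4 in queens against queen-right workers had −0.50 with an adjusted p of 0.0871. Crossing the numbers of the queen-right workers, chosen after seeing the data, gave 225 genes. No other call of the 6 genes changed with the block.

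With 2 libraries a group, limma's calls assume that all groups vary alike, and leaving out 1 library leaves a lone sample under that assumption. Tissue markers differ between the groups, and whether the counting used strand is not given in the sources used here.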
